A study of Mus musculus with 6 samples.

Results

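The 10 genes described here are targets and feedback inhibitors of the canonical WNT pathway: Axin2, Lef1, Tcf7, Tcf7l1, Sp5, Nkd1, T, Dkk1, Notum and Znrf3. These genes, and the lists used below, were chosen by name with earlier results of these data known. Each of the 10 symbols matched 1 of the 55401 Ensembl genes in the deposited count table. All 10 were among the 17778 genes that passed the filter on low counts. RNA with poly(A) tails had been sequenced from 6 dishes of mouse embryonic stem (ES) cells. The KO group held 3 dishes given doxycycline for 7 days, and the other group held 3 untreated dishes labelled as expressing 3XHA-Taf13, a tagged form of a subunit of the general transcription factor TFIID. The drug and the KO label coincide in every library, so their effects cannot be told apart. The sources used here do not name the ES line, the number of clones, the medium, any GSK3 inhibitor in it, or the promoter that drives the tagged gene. Because each library is bulk RNA, a change in RNA per cell cannot be told apart from a change in the share of cells that express a gene.

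In canonical WNT signalling, secreted WNT proteins bind Frizzled receptors and LRP co-receptors and so inhibit a cytoplasmic complex that destroys beta-catenin. Beta-catenin then enters the nucleus and binds TCF and LEF proteins, which hold TCF/LEF motifs in the DNA of target genes. Several targets encode inhibitors that act back on the pathway at the cell surface, outside the cell or in the cytoplasm. In mouse ES cells TCF7L1 is known mainly as a repressor of pluripotency genes, and WNT signals are known to favour self-renewal and to induce brachyury in the primitive streak.

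The promoters shown here bear on how these genes are related by sequence, since TCF and LEF proteins recognise DNA containing CTTTGA. RefSeq promoter windows (build GRCm38.p6, 250 bases before to 50 after an annotated start) were matched by symbol for 8 of the 10 genes, in 12 windows. The genes without one are Notum and Znrf3. The 6 letters CTTTGA were searched on both strands and were present in 4 of the 12 windows, 1 each for Sp5, T and Dkk1 and 1 of 4 windows for Lef1. Of all 32851 windows in the table, 16.0% held them. The windows of Dkk1 (chr19:30549447-30549746, minus strand), which had the largest increase, of T (chr17:8434173-8434472, plus strand), which fell, and of Sp5 (chr2:70474673-70474972, plus strand), which did not pass the test, are printed 5′ to 3′ with the letters on either strand in capitals. The window of Axin2 (chr11:108920099-108920398, plus strand), a widely used readout of the pathway, held none and is printed for comparison.
Dkk1: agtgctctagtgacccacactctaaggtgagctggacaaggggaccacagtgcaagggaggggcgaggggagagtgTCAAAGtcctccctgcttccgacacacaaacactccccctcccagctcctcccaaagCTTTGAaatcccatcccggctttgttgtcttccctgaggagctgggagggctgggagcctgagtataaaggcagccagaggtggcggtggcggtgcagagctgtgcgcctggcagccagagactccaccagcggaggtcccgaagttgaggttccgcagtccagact
T: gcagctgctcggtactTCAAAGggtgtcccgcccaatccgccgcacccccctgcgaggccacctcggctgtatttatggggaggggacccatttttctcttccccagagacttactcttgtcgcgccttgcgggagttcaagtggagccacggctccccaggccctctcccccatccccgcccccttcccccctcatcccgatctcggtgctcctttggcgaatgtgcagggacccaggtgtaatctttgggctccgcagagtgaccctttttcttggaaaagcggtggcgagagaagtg
Sp5: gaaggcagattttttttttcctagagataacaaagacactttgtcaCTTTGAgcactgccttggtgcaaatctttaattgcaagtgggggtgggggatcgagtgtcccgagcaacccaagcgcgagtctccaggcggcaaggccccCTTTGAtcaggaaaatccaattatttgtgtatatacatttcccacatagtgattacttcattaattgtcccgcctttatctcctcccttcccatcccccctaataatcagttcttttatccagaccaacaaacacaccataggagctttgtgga
Axin2: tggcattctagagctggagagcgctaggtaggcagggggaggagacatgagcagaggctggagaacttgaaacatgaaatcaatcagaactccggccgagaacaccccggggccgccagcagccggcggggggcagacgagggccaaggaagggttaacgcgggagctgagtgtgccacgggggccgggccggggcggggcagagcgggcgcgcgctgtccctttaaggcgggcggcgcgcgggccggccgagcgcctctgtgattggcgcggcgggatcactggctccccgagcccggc

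The first letter of the match lay 174 and 117 bases before the Dkk1 start of its window and 234 bases before the T start. For Sp5 it lay 204 and 104 bases before the start. The RefSeq start in the Dkk1 window lies inside the gene span given below, which begins further upstream. The Dkk1 match at 117 bases therefore lies within that span. The Lef1 window with the letters (chr3:131156044-131156343, plus strand) lies inside the Lef1 span, which begins at 131110471. The other Lef1 windows lie further upstream and held none. The Nkd1 window (chr8:88527383-88527682, plus strand) also lies inside its gene span, which begins at 88521354. The matches are of letters within a short window, and neither binding nor the use of a start was measured.

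Total counts ran from 31219328 to 50328010 per library. Taf13 itself (ENSMUSG00000048100) had counts of 422, 634 and 699 in the KO-labelled libraries, against 244, 445 and 447 in the expressing libraries. Its log2 fold change was 0.40 (SE 0.147, adjusted p = 0.0578, edgeR), and it was called higher in 9 of 14 alternative fits, whose adjusted p ran from 0.00253 to 0.166. The table does not separate reads of the tagged copy from those of the chromosomal gene, so Taf13 does not check the labels and every direction below rests on them. Expressing replicate 1 stood apart from its group: its replicate pairs gave a chi-square per degree of freedom of 37.9 and 30.8, against 3.88 for the third pair of its group, and its deviation followed gene GC content (r = 0.659, taken over genes, which do not count as independent replicates). Of 5 pluripotent cell markers, 5 were lower in the KO-labelled libraries and none was at 0. The Sox2 call was made in 10 of 14 alternative fits, and 4 of the 5 were lower with the GC trend removed. The summed level of the 5 markers was 1030 to 1038 CPM in the KO-labelled libraries and 1806 to 1966 CPM in the expressing libraries. RNA of these defining genes of ES cells was thus found in every library, which does not give the share of cells that expressed them. All 7 primitive endoderm markers were higher, with sums of 337 to 369 CPM in the KO-labelled libraries and 56.3 to 66.8 CPM in the expressing libraries. Of 7 fibroblast markers, 2 were higher and 1 lower, with sums of 90.5 to 171 CPM in the KO-labelled libraries and 97.3 to 126 CPM in the expressing libraries, and KO replicate 2 held the highest sum. The part of these other cell markers in the results below was not tested.

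Counts were scaled to CPM, the counts of a gene relative to the scaled library size, and a change was called where edgeR's quasi-likelihood test gave a Benjamini-Hochberg adjusted p under 0.05 over all tested genes. Fold changes are log2, KO-labelled minus expressing, with a standard error (SE) and a 95% interval. In the KO-labelled libraries, 3 of the 10 genes rose (Dkk1, Nkd1 and Lef1) and 5 fell (Notum, T, Tcf7l1, Znrf3 and Tcf7), while Sp5 and Axin2 did not pass. Of all tested genes, 19.2% rose and 20.8% fell. The library values of the groups did not overlap for 9 of the 10 genes, the exception being Sp5, and for 53.5% of all tested genes. The median log2 fold change was -0.11 over the 10 genes and -0.01 over all tested genes, and the 10 genes moved in both directions. Without expressing replicate 1 the median over the 10 genes was 0.01. The calls of Dkk1, Notum, T, Nkd1 and Lef1 were made under all 14 alternative fits. The other 3 decreases were smaller and were lost under several. Without expressing replicate 1, 4 genes rose and 5 fell, while 26.2% of all tested genes rose and 24.7% fell. With libraries scaled by their totals alone, 4 rose and 2 fell, while the split over all tested genes became 4466 higher and 2570 lower, against 3422 and 3695.

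**Figure D1:**
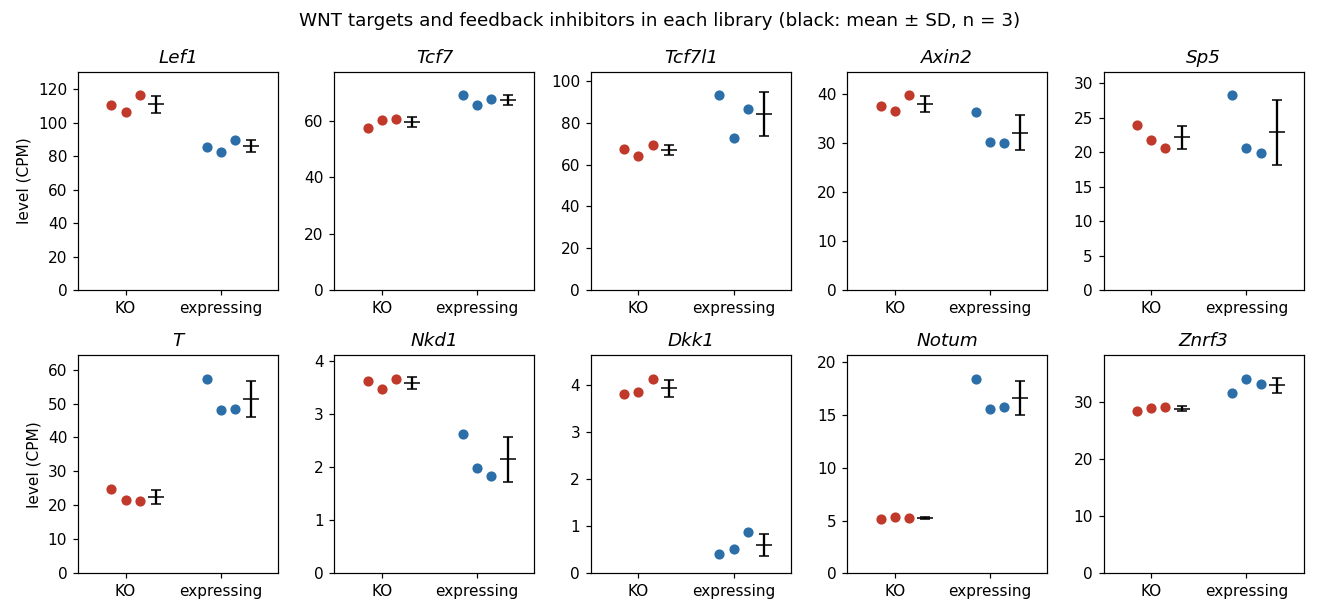
Level of each gene in CPM (vertical axes, linear from 0) in the 3 KO-labelled libraries (red) and the 3 expressing libraries (blue), in the order of replicates 1 to 3, with mean ± SD in black. Dkk1 is near 4 CPM in the KO-labelled libraries and below 1 CPM in the expressing libraries, T and Notum are lower in the KO-labelled libraries, and only Sp5 has groups that overlap.

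Dkk1 encodes a secreted inhibitor that binds the LRP co-receptors and blocks WNT reception. It had the largest change of the 10 genes. Dkk1 (ENSMUSG00000024868; chromosome 19, 30545863 to 30549665, minus strand, mm10) had 133, 174 and 214 counts, or 3.81, 3.86 and 4.15 CPM, in the KO-labelled libraries, against 13, 23 and 32 counts, or 0.417, 0.522 and 0.876 CPM, in the expressing libraries. The groups were far apart, and expressing replicate 3 was the highest of its group. Means were 3.94 ± 0.181 CPM in the KO-labelled libraries and 0.605 ± 0.241 CPM in the expressing libraries (SD, n = 3 each), a 6.52-fold difference. The log2 fold change was 2.69 (SE 0.219, 95% interval 2.20 to 3.19, adjusted p = 2.36e-05, edgeR). Leaving out 1 library at a time gave 2.55 to 3.05, the highest without expressing replicate 3. Dkk1 RNA was low in both groups beside most of the other genes. Its precision in the expressing libraries rests on 13 to 32 reads per library. In KO replicate 2, whose fibroblast marker sum was the highest, Dkk1 was between the other KO-labelled libraries. The primitive endoderm marker sum separated the groups as Dkk1 did, with 337 to 369 CPM in the KO-labelled libraries and 56.3 to 66.8 CPM in the expressing libraries. The part of either cell type in the change of Dkk1 was not tested.

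Notum encodes a secreted esterase that removes the lipid group from WNT proteins, and its RNA moved opposite to that of Dkk1. Notum (ENSMUSG00000042988; chromosome 11, 120653788 to 120661175, minus strand) was at 5.13, 5.32 and 5.21 CPM in the KO-labelled libraries, against 18.5, 15.5 and 15.8 CPM in the expressing libraries. The 3 KO-labelled values were nearly equal, and every one was less than the lowest expressing value. Notum fell by 1.66 on the log2 scale (SE 0.101, 95% interval -1.89 to -1.44, adjusted p = 4.59e-06, edgeR), and the range over single libraries left out was -1.71 to -1.55. Its exons overlap Notumos and Myadml2os on the opposite strand. Notumos had 9, 10 and 18 counts in the KO-labelled libraries and 27, 24 and 19 in the expressing libraries, while Notum had 179, 240 and 269 counts in the KO-labelled libraries and 576, 685 and 576 in the expressing libraries. Myadml2os had 0 counts in every library.

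Nkd1 and Znrf3 act inside the cell and at its surface. NKD1 binds Dishevelled and dampens WNT signalling, and ZNRF3 is a membrane ubiquitin ligase that removes Frizzled receptors. Nkd1 (ENSMUSG00000031661; chromosome 8, 88521354 to 88594884) was at 3.61, 3.46 and 3.66 CPM in the KO-labelled libraries, against 2.63, 1.97 and 1.83 CPM in the expressing libraries. It rose in every KO-labelled library relative to all the expressing ones, by 0.75 (SE 0.156, 95% interval 0.40 to 1.10, adjusted p = 0.00438, edgeR). Expressing replicate 1 was the highest of its group, and without it the log2 fold change of Nkd1 was 0.93. Znrf3 (ENSMUSG00000041961; chromosome 11, 5276324 to 5444847) was at 28.4, 29.0 and 29.1 CPM in the KO-labelled libraries, against 31.5, 34.1 and 33.1 CPM in the expressing libraries. Its groups did not overlap but lay close, and it fell by 0.19 (SE 0.0671, 95% interval -0.34 to -0.04, adjusted p = 0.046, edgeR). The Znrf3 call held in 4 of 14 alternative fits. Without 1 library it passed only without expressing replicate 1 (adjusted p = 0.00702, edgeR), and with library totals alone its adjusted p was 0.278.

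Axin2, Sp5 and T are transcriptional targets of beta-catenin. AXIN2 is a scaffold of the destruction complex and is itself a feedback inhibitor. Axin2 (ENSMUSG00000000142; chromosome 11, 108920349 to 108950783) was at 37.6, 36.7 and 39.8 CPM in the KO-labelled libraries, against 36.3, 30.2 and 30.0 CPM in the expressing libraries. The lowest KO-labelled value lay just over the value of expressing replicate 1 and well over the other expressing values. The log2 fold change of Axin2 was 0.24 (SE 0.0886, 95% interval 0.04 to 0.44, adjusted p = 0.054, edgeR). Without expressing replicate 1 it was 0.37 (adjusted p = 3.99e-06, edgeR), and Axin2 passed in 8 of 14 alternative fits, whose adjusted p ran from 3.99e-06 to 0.184. It overlaps Gm11670 on the opposite strand, which had at most 1 count in a library.

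SP5 is a zinc finger protein induced directly by beta-catenin. Sp5 (ENSMUSG00000075304; chromosome 2, 70474923 to 70477729) was at 23.9, 21.8 and 20.7 CPM in the KO-labelled libraries, against 28.2, 20.5 and 19.8 CPM in the expressing libraries. The groups overlapped, with expressing replicate 1 the highest of all 6 libraries. Its log2 fold change was -0.05 (SE 0.133, 95% interval -0.34 to 0.25, adjusted p = 0.812, edgeR). Without expressing replicate 1 the value was 0.16 (adjusted p = 0.0729, edgeR), so the sign of Sp5 turned with 1 library, as it did with library totals alone (0.04) and with the GC trend removed (0.09).

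T encodes brachyury, a T-box factor of the primitive streak. T (ENSMUSG00000062327; chromosome 17, 8434423 to 8442496) was at 24.8, 21.7 and 21.2 CPM in the KO-labelled libraries, against 57.4, 48.2 and 48.4 CPM in the expressing libraries. The groups were far apart, and the highest library of each was its replicate 1. T fell by 1.19 (SE 0.0957, 95% interval -1.40 to -0.97, adjusted p = 2.22e-05, edgeR), with a range of -1.26 to -1.08 over single libraries left out. Of 6 other tested genes of the primitive streak, 1 rose and 1 fell. Wnt3, which encodes a WNT protein needed to form the streak, rose by 0.69 (SE 0.090), and Eomes, a T-box factor, fell by 0.21 (SE 0.0707, adjusted p = 0.0367, edgeR), a call made in only 3 of 14 alternative fits. Nodal, a TGF-beta family ligand, had a log2 fold change of 0.14 (SE 0.0822, adjusted p = 0.195, edgeR), and 0.24 without expressing replicate 1 (adjusted p = 0.00109, edgeR).

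Lef1, Tcf7 and Tcf7l1 encode DNA-binding partners of beta-catenin, and LEF1 and TCF7 are also WNT targets in many tissues. Lef1 (ENSMUSG00000027985; chromosome 3, 131110471 to 131224356) was at 110.4, 106.5 and 116.4 CPM in the KO-labelled libraries, against 85.6, 82.7 and 89.6 CPM in the expressing libraries. It rose by 0.37 (SE 0.0621, 95% interval 0.23 to 0.51, adjusted p = 0.00139, edgeR) with no overlap of the groups. Gm43352, which overlaps it on the opposite strand, had 28, 36 and 45 counts in the KO-labelled libraries and 14, 19 and 10 in the expressing libraries, while Lef1 had 3851 to 6007 counts in the KO-labelled libraries and 2672 to 3645 in the expressing libraries. The counts do not tell the starts of Lef1 or of Tcf7 apart, and both genes are known to make short forms that lack the beta-catenin binding part.

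Tcf7l1 (ENSMUSG00000055799; chromosome 6, 72626378 to 72789254) was at 67.6, 64.2 and 69.3 CPM in the KO-labelled libraries, against 93.2, 72.9 and 86.4 CPM in the expressing libraries. The expressing libraries were spread more widely, and the lowest, replicate 2, was just over the KO-labelled range. Gm15401, on the opposite strand, had at most 3 counts in a library. Tcf7l1 fell by 0.33 (SE 0.0894, 95% interval -0.53 to -0.13, adjusted p = 0.0165, edgeR), and its log2 fold change was -0.22 without expressing replicate 1. Tcf7l1 no longer passed when expressing replicate 3 was left out (adjusted p = 0.0724), nor without KO replicate 1 (0.055) or KO replicate 2 (0.074), nor with library totals alone (0.0739, all edgeR). Tcf7 (ENSMUSG00000000782; chromosome 11, 52252371 to 52283014) was at 57.4, 60.2 and 60.5 CPM in the KO-labelled libraries, against 68.9, 65.3 and 67.6 CPM in the expressing libraries. Its groups did not overlap, and it fell by 0.18 (SE 0.0595, 95% interval -0.31 to -0.05, adjusted p = 0.0369, edgeR), a call made in 5 of 14 alternative fits. With library totals alone its log2 fold change was -0.09 (adjusted p = 0.304, edgeR).

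**Figure D2:**
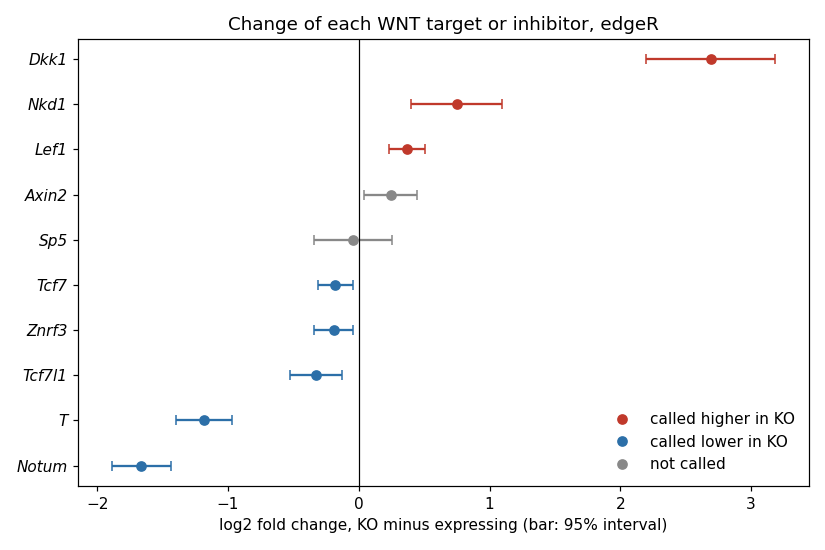
Log2 fold change of each gene (horizontal axis, KO-labelled minus expressing, edgeR) with its 95% interval, in red for genes called higher, blue for genes called lower and grey for genes not called. Dkk1 at 2.69 and Notum at -1.66 mark the ends, and the intervals of Tcf7, Znrf3 and Axin2 come close to 0.

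Levels were compared between genes as CPM per kilobase of annotated exon (RPKM). The length takes all annotated exons of a gene together, 8788 bases for Lef1 and 2625 for Tcf7, so the order depends on the annotation. In CPM, Lef1 was above Tcf7, at 111 against 59.4 in the KO-labelled libraries and 86.0 against 67.3 in the expressing libraries. In the KO-labelled libraries Tcf7 stood highest at 22.6 ± 0.660 RPKM, followed by Tcf7l1 (17.1 ± 0.658), Lef1 (12.6 ± 0.570), Sp5 (10.5 ± 0.793), T (9.74 ± 0.857), Axin2 (6.90 ± 0.294), Znrf3 (3.65 ± 0.0506), Notum (2.17 ± 0.0400), Dkk1 (1.62 ± 0.0747) and Nkd1 (0.785 ± 0.0231; RPKM, SD, n = 3). Of neighbours in this order, Sp5 and T overlapped between libraries. In the expressing libraries the order was Tcf7 (25.6 ± 0.696), T (22.2 ± 2.26), Tcf7l1 (21.4 ± 2.64), Sp5 (10.9 ± 2.22), Lef1 (9.78 ± 0.397), Notum (6.89 ± 0.675), Axin2 (5.84 ± 0.655), Znrf3 (4.17 ± 0.164), Nkd1 (0.471 ± 0.0930) and Dkk1 (0.249 ± 0.0992; RPKM, SD, n = 3). There T overlapped with Tcf7l1, Sp5 with Lef1, and Notum with Axin2. T thus ranked below Sp5 in the KO-labelled libraries and beside Tcf7l1 in the expressing libraries, and Dkk1 ranked above Nkd1 in the KO-labelled libraries and below it in the expressing libraries.

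The 4 TCF/LEF genes were also set against each other within each library, a comparison that does not depend on library scaling. Lef1 made up 23.8%, 23.0% and 24.0% of their summed RPKM in the KO-labelled libraries, against 16.1%, 17.4% and 17.2% in the expressing libraries, a difference of 6.71 percentage points. Tcf7l1 made up 32.6%, 31.1% and 32.04% in the KO-labelled libraries, against 39.1%, 34.4% and 37.3% in the expressing libraries, a difference of -5.03 points. Both genes had groups that did not overlap. Tcf7 held 42.3 ± 1.21% in the KO-labelled libraries and 44.3 ± 1.57% in the expressing libraries (SD, n = 3 each), with overlapping groups. Tcf7l2, the fourth family gene, held 2.19 ± 0.0958% in the KO-labelled libraries and 1.82 ± 0.259% in the expressing libraries, and its log2 fold change of 0.16 (SE 0.101, adjusted p = 0.24, edgeR) did not pass. These shares are a description with no test, and their size depends on the annotated exon lengths.

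**Figure D3:**
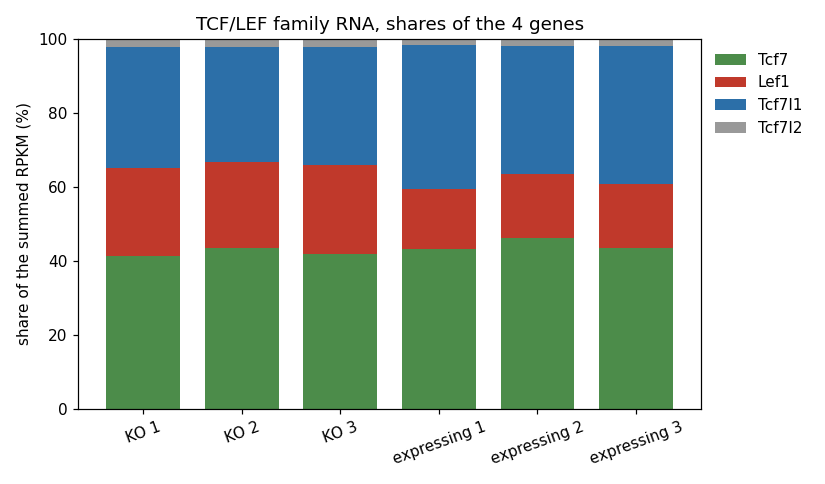
Share of the summed RPKM of the 4 TCF/LEF genes (vertical axis, %) in each library, stacked as Tcf7, Lef1, Tcf7l1 and Tcf7l2 from the bottom. The Lef1 segment is 23.0% to 24.0% in the KO-labelled libraries and 16.1% to 17.4% in the expressing libraries.

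The feedback inhibitors were also set against a close relative each, as the ratio of the counts within a library. Axin1, the constitutive scaffold of the destruction complex, fell by 0.37 (SE 0.0802, adjusted p = 0.0058, edgeR), and the log2 count ratio of Axin2 to Axin1 was -0.79, -0.87 and -0.73 in the KO-labelled libraries, against -1.40, -1.41 and -1.40 in the expressing libraries. The ratios of the expressing libraries were nearly equal, replicate 1 included, and the groups did not overlap. Nkd2, the second Naked cuticle gene, fell by 0.84 (SE 0.121, adjusted p = 5.74e-04, edgeR), and the log2 ratio of Nkd1 to Nkd2 was -0.07, -0.43 and -0.01 in the KO-labelled libraries, against -1.47, -1.85 and -1.99 in the expressing libraries. Rnf43, which like Znrf3 encodes a ligase for Frizzled receptors, had a log2 fold change of 0.50 (SE 0.229, adjusted p = 0.112, edgeR) at 1.43 ± 0.373 CPM in the KO-labelled libraries and 1.01 ± 0.116 CPM in the expressing libraries (SD, n = 3 each). The log2 ratio of Znrf3 to Rnf43 was 4.35 ± 0.345 in the KO-labelled libraries and 5.01 ± 0.144 in the expressing libraries (SD, n = 3 each).

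Sp8, the relative of Sp5, rose by 1.24 (SE 0.162, adjusted p = 3.38e-04, edgeR), at 20.1 ± 1.03 CPM in the KO-labelled libraries and 8.49 ± 2.30 CPM in the expressing libraries (SD, n = 3 each). Dkk2 rose by 1.05 (SE 0.299, adjusted p = 0.0201, edgeR), with 1.20, 2.17 and 1.10 CPM in the KO-labelled libraries, against 0.705, 0.816 and 0.630 CPM in the expressing libraries. Its value in KO replicate 2 stood apart, and without KO replicate 2 the log2 fold change was 0.67 (adjusted p = 0.0629, edgeR). Leaving out expressing replicate 3 also lost the call, with an adjusted p of 0.0666 in edgeR. The fibroblast marker sum was likewise highest in KO replicate 2. Dkk3 did not pass (0.21, SE 0.124), and Dkk4 was too low to be tested.

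Beyond the 10 genes, 106 of 115 listed WNT pathway genes were tested, of which 24 rose and 25 fell, or 22.6% and 23.6%, against 19.2% and 20.8% of all tested genes. Without expressing replicate 1 the counts were 29 and 28, or 27.1% and 26.2%, against 26.2% and 24.7% of all tested genes. Of 18 tested ligands and secretion factors, 9 rose and 0 fell in edgeR. None was lower by DESeq2 either, or in edgeR at an unadjusted p under 0.05 (0 genes in each). The median over this list was 0.62 on the log2 scale. Leaving out expressing replicate 1 gave 8 of 19 higher, leaving out KO replicate 1 gave 7 of 19, and leaving out KO replicate 3 gave 7 of 18. Of all tested genes, 26.2%, 14.6% and 14.3% were higher in these fits. With the GC trend removed, 13 of 18 were higher, against 27.3% of all tested genes. Wls, the carrier that takes WNT proteins to the cell surface, rose by 1.11 (SE 0.0802), at 151 ± 10.8 CPM in the KO-labelled libraries and 69.7 ± 5.997 CPM in the expressing libraries (SD, n = 3 each). Wnt10b rose by 1.90 (SE 0.198) and Wnt2b by 1.34 (SE 0.268). Wnt1, Wnt3a and Wnt16 were too low to be tested.

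Of 15 receptors and co-receptors, 2 rose and 5 fell. The lower count was 3 without expressing replicate 3 or any one of the KO replicates, and with library totals alone, and it was 6 without expressing replicate 1. Of all tested genes, 14.5% to 15.1% were lower in the fits that gave 3, and 24.7% without expressing replicate 1. Fzd7, the Frizzled gene with the highest RPKM here, fell by 0.68 (SE 0.0678), at 92.6 ± 4.43 CPM in the KO-labelled libraries and 148 ± 9.41 CPM in the expressing libraries (SD, n = 3 each). Ror1 rose by 0.77 (SE 0.0933) while its relative Ror2 fell by 0.86 (SE 0.127). Both encode receptor tyrosine kinases of the non-canonical WNT branch. Among 7 R-spondin and LGR genes, Rspo4 passed (1.01, SE 0.244) and the other 6 did not. The list had 2 higher and 1 lower without expressing replicate 2, 2 higher and 0 lower without expressing replicate 1, 3 higher and 1 lower after removal of the GC trend, and 3 higher and 0 lower with library totals alone. In the same order, 17.2%, 26.2%, 27.3% and 25.1% of all tested genes were higher. The lower shares were 20.1%, 24.7%, 26.0% and 14.5%. Lgr4, an R-spondin receptor, had a log2 fold change of 0.18 (SE 0.0874, adjusted p = 0.135, edgeR), and it passed without expressing replicate 1, with 0.10 (adjusted p = 0.0203, edgeR). Of 13 tested extracellular inhibitors besides Dkk1 and Notum, 4 rose and 3 fell. The secreted Frizzled-related genes split: Sfrp1 fell by 1.00 (SE 0.0783) and Sfrp2 by 0.32 (SE 0.0768), and Sfrp4 rose by 0.72 (SE 0.0916). Sfrp5 fell by 1.23 (SE 0.299, adjusted p = 0.00961, edgeR), at means of 0.407 CPM in the KO-labelled libraries and 0.949 CPM in the expressing libraries. Frzb, of the same family, did not pass (0.75, SE 0.285). Sfrp1, Sfrp2 and Sfrp5 were the 3 genes of this list that fell.

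Of 17 genes of the destruction complex and cytoplasmic transducers, 1 rose and 4 fell, with a median log2 fold change of -0.06. These counts were 2 and 6 without expressing replicate 1, and the same after removal of the GC trend. Calls over all tested genes also grew in these fits, to 26.2% and 27.3% higher and to 24.7% and 26.0% lower. Amer1, a membrane partner of APC and axin, fell by 0.60 (SE 0.0608), Dvl3, a Dishevelled gene, rose by 0.48 (SE 0.0764), and Ctnnb1, which encodes beta-catenin, fell by 0.19 (SE 0.0551, adjusted p = 0.0194, edgeR), a call made in 7 of 14 alternative fits. Of 10 nuclear partners, 3 fell and 0 rose in edgeR, with 0 higher by DESeq2 or in edgeR before adjustment at a p under 0.05, though 2 were higher without expressing replicate 1 and with the GC trend removed. The co-repressor genes Tle1 and Tle4 fell by 0.49 (SE 0.0730) and 0.44 (SE 0.0629), and Bcl9, a beta-catenin co-activator, by 0.22 (SE 0.0715), the last a call made in 9 of 14 alternative fits, with a log2 fold change of -0.14 without expressing replicate 1.

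Other genes listed as beta-catenin targets also went both ways, with 7 of 19 higher and 5 lower. Cdx4, a caudal-type homeobox gene, was at 4.36, 4.99 and 4.92 CPM in the KO-labelled libraries, against 0.481, 1.04 and 0.958 CPM in the expressing libraries, and rose by 2.49 (SE 0.216). Mycn, a MYC family gene, fell by 0.79 (SE 0.0523), at 204 ± 4.21 CPM in the KO-labelled libraries and 354 ± 8.81 CPM in the expressing libraries (SD, n = 3 each). Of the 4 listed genes that TCF7L1 is known to repress in mouse ES cells, 4 fell. Klf2 had a log2 fold change of -1.68 (SE 0.108), Nanog of -1.24 (SE 0.0735) and Tfcp2l1 of -1.10 (SE 0.0674). Nanog and Esrrb are also among the pluripotent cell markers, so this count is not separate from the decrease of that list.

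**Figure D4:**
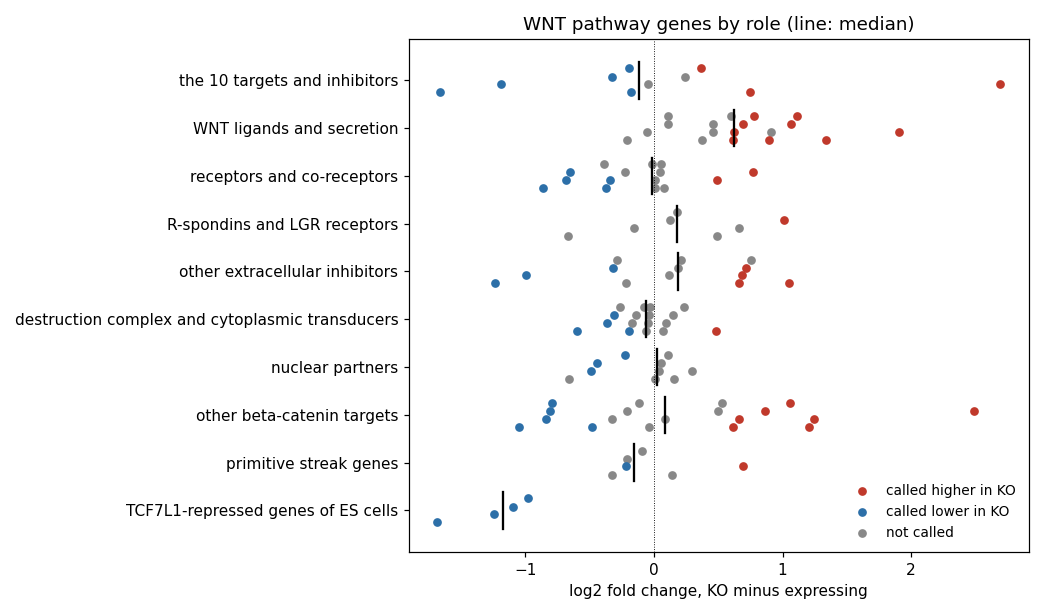
Log2 fold change (horizontal axis, KO-labelled minus expressing) of every tested gene in each list of the WNT pathway, one point per gene, in red if called higher, blue if called lower and grey if not called, with the list's median as a line. A gene in more than 1 list is drawn in each. The ligands and secretion factors have a median of 0.62, and the 10 targets and inhibitors spread from -1.66 to 2.69.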

How the data were processed

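The authors deposited raw read counts per Ensembl gene for 6 libraries, made from 800 ng of total RNA each with a stranded poly(A) kit, per the labels' protocols. The submitters' processing notes name bcl2fastq 2.20.0.422, cutadapt 1.10, STAR 2.5.3a, HTSeq 0.6.1p1 and mm10. The sources used here do not give their settings, such as the strand option or annotation release, so reads of genes that overlap on opposite strands may not be fully separated. Symbols, positions and exon lengths come from GENCODE M21 (mm10), which named 55141 of 55401 identifiers.

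Counts were tested in R 4.3.3 with edgeR 4.0.16 (filterByExpr, minimum count 10 and minimum total 15; TMM; robust glmQLFit; glmQLFTest with group as the only term), with Benjamini-Hochberg adjustment over all 17778 tested genes. The common biological coefficient of variation was 9.05%. The fit was also run on simulated counts with known changes and the same dispersion for every gene. The simulation held no GC trend and no library that stood apart, so it does not bear on expressing replicate 1. Its outcome is not given here. Alternatives were DESeq2 1.42.0, its size factors, library totals, 2 other filters, removal of the GC trend, a replicate block and each library left out. CPM use TMM-scaled sizes, and a count of 3 equals 0.0581 to 0.0961 CPM. This floor covers counting error only, as PCR copies were not separated. Count ratios used a pseudocount of 0.5.

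Per the labels, replicates are separate dishes, which may share a starting culture. The genes and lists were chosen with earlier results of these data known. The text names the 10 genes, their paralogues, and in each list up to 3 called genes of at least 1 mean CPM with the largest change and the gene of highest RPKM. Sfrp5 and Frzb are named outside this rule and its counts. A gene that this rule selects is not reported here.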

Additional observations from a re-analysis of the deposited data

How the results depend on the processing

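The count of lower genes among the 10 was 5 as reported, 3 with DESeq2, with DESeq2 size factors, with no filter and with the replicate block, 2 with library totals alone, and 2 to 5 with 1 library left out. Of all tested genes, 20.8% were lower as reported, 19.3% with DESeq2 and 19.7% with its size factors. The share was 11.7% with no filter, 19.1% with the replicate block and 14.5% with library totals alone. It was 14.5% to 24.7% with 1 library left out. The count of higher genes among the 10 was 3 or 4 throughout, while 11.4% to 27.3% of all tested genes were higher. Of the other pathway genes, 37 were higher with the replicate block and the GC trend removed together, against 24 as reported, and 22 to 29 with 1 library left out. In the combined fit, 34.9% of these pathway genes were higher, against 27.0% of all tested genes. As reported, the shares were 22.6% and 19.2%. With 1 library left out, 14.1% to 26.2% of all tested genes were higher. The cause of these moves was not tested. Sp5 turned positive with library totals alone (0.040), with the GC trend removed (0.095, and 0.099 with the replicate block), without expressing replicate 1 (0.16) and without KO replicate 3 (0.0035), never past the threshold, and ran from -0.13 to 0.16 with 1 library left out. For the remaining named genes no direction turned, and 30 of the 43 named genes that were tested kept both call and direction under all 14 alternatives. The Lef1 share difference was 9.93 points on raw counts in place of counts per kilobase, where longer genes weigh more. No pairing by replicate number was seen (correlation of same-numbered deviations 0.0236, -0.0342 and 0.0419). The deviations of expressing replicates 1 to 3 followed GC content (r = 0.659, -0.574 and -0.379 over genes), so a weaker pairing could go unseen.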

Other observations

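For Axin2 and T, the most similar profiles over the 6 libraries were sought among 14075 genes of at least 1 mean CPM. Each profile was log2 of CPM plus 0.5, centred on its mean, and profiles were compared by their root mean square difference. The added 0.5 shrinks the changes of genes of low CPM, so the distances do not follow directly from the log2 fold changes. Nearest to Axin2 were Eefsec (0.0266), Rreb1 (0.0330) and Ppp2r5d (0.0334), with log2 fold changes of 0.25, 0.27 and 0.23. Nearest to T were Col9a2 (0.0345), 1810032O08Rik (0.0483) and Fgf17 (0.0513), with log2 fold changes of -1.37, -1.13 and -1.17. Col9a2 encodes a chain of cartilage collagen IX and Fgf17 a fibroblast growth factor. These likenesses are a description over 6 libraries.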
